A study of Mus musculus with 57 samples.

Results

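GATA6 and SOX2 binding 8 h after GATA6 induction was compared in 4 CUT&RUN peak lists, out of 57 samples in the series, 30 of which have a peak list. The members were both GATA6 lists whose deposited file and peak names carry the 8 h titles, and both SOX2 8 h lists. Merging their peaks gave 42677 regions. Of these, 5590 held a peak of all 4 lists (shared regions), 11299 held a peak of both GATA6 lists and of no SOX2 list (GATA6-only), and 901 held a peak of both SOX2 lists and of no GATA6 list (SOX2-only). The time point of the GATA6 lists came from their names. The sample record that holds them says 48 h, whereas their names match the titles of the samples recorded at 8 h. The counts of shared, GATA6-only and SOX2-only regions are therefore also given for the lists recorded at 8 h. Those lists carry 4 h names and are called the lists named 4 h below. The lists named 48 h are in turn recorded at 4 h.

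CUT&RUN directs a nuclease to a protein with an antibody and sequences the DNA fragments that are cut free. The cells were KH2 mouse embryonic stem (ES) cells, labelled as strain C57BL/6 with the transgene TRE:GATA6-DSREd2, in which doxycycline switches on GATA6. Before induction (0 h) they grew in 2i medium with LIF. For 8 h they were kept in serum medium with LIF and doxycycline at 1 µg/mL, so any difference from 0 h holds a change of medium as well as induction. If the sample record and not the name were right, the GATA6 cells would have had doxycycline for part of 48 h only. Each group had 2 replicates. The study states that replicates were performed independently but not, for these lists, what was separate, so part of the spread between them may be technical.

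GATA6 is a zinc finger factor that binds the sequence GATA with short flanks and drives the primitive endoderm (PrE) fate of the blastocyst. SOX2 binds a short ACAA-containing sequence through its HMG box, usually beside OCT4, and maintains the epiblast (Epi) state that ES cells resemble. Both factors are present in the inner cell mass before the lineages part, so cis-regulatory elements (CREs) can meet both.

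Windows of the strongest regions of each class are shown as examples of the sequence under the summits. Each run covers 100 bp to each side of the mean summit of the lists that hold the region, on the GRCm38 forward strand, with GATA words and SOX words in capitals. The GATA words searched were AGATAA, its variant AGATAG, the word TGATAA and its variant TGATAG. The SOX words searched were ACAATG and its variant ACAAAG. All were searched on both strands, and overlapping matches were each counted. Of the 5 strongest shared regions, those near Nt5e, Arglu1 and Hk2 carry both kinds of word, that at Cd59a has a SOX word only and that in Fgfr2 has neither. Over all shared windows 30.0 to 35.6% hold both, depending on the list. The sequences of Nt5e, Arglu1 and Cd59a follow.
Nt5e, chr9:88332479-88332679: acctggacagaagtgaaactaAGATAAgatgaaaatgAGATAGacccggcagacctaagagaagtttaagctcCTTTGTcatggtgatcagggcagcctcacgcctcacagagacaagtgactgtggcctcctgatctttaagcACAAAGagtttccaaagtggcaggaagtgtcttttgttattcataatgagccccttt
Arglu1, chr8:8723829-8724029: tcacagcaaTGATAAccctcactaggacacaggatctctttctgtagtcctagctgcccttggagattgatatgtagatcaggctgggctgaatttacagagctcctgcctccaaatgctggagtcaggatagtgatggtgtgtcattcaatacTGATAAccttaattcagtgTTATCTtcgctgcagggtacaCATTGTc
Cd59a, chr2:104098726-104098926: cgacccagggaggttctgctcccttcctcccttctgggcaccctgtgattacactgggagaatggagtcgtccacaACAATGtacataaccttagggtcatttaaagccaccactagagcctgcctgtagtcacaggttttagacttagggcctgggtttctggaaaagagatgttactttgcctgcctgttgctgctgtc
All 5 strongest GATA6-only regions carry GATA words, and that near Kazn also carries a SOX word. The sequences of Gm14403, Gm9887 and Kazn follow.
Gm14403, chr2:177500639-177500839: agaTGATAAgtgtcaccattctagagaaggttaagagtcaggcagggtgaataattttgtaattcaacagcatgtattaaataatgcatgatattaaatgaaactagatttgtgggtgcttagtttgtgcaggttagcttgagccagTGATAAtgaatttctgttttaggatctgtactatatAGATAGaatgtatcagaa
Gm9887, chr12:69441130-69441330: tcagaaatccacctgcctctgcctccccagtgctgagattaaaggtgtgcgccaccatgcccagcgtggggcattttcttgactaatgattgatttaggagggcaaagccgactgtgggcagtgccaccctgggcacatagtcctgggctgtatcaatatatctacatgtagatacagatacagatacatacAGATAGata
Kazn, chr4:142243289-142243489: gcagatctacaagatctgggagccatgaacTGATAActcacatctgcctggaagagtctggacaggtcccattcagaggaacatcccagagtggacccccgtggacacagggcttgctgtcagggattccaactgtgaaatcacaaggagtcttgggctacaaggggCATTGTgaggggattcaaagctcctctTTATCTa
The 4 strongest SOX2-only regions carry no GATA word. The windows at Mast3 and Ift57 have no SOX word either and hold 15 CpG each, whereas those near Kif18a and Aasdhppt hold 1 and 2 SOX words, and the reference marks 188 and 200 of their bases as repeat.
Mast3, chr8:70792641-70792841: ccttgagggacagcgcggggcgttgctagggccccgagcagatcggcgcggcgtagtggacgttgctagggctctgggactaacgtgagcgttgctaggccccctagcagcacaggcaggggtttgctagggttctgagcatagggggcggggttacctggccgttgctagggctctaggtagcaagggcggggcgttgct
Kif18a, chr2:108843931-108844131: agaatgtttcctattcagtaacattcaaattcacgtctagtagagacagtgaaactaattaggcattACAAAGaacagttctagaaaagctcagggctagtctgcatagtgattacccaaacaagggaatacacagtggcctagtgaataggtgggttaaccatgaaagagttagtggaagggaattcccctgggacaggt
Aasdhppt, chr9:3988212-3988412: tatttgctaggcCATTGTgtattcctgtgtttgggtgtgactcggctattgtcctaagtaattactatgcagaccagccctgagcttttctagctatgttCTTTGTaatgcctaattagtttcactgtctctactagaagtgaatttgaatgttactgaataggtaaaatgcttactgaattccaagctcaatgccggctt
Ift57, chr16:49699105-49699305: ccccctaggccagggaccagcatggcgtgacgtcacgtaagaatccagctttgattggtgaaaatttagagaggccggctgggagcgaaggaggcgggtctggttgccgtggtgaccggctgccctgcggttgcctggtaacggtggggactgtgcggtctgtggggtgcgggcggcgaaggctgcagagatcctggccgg
The windows near Kif18a and Aasdhppt, on different chromosomes, share an identical run of 42 bases on opposite strands.

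The GATA6 lists held 28674 peaks in replicate 1 and 30232 in replicate 2, and the SOX2 lists 14053 and 11538, without 2 mitochondrial peaks in each list. The lists give no read totals. The background coverage that the peak caller used, recovered from its fold and p-values, was 1.29 and 1.201 fragments per base in the GATA6 lists and 0.290 and 0.436 in the SOX2 lists. The SOX2 libraries were shallower by this measure, and the part of depth in the class sizes was not tested beyond the equal numbers of peaks given with them.

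The first comparison asked how much of each factor's binding was common to both. Most SOX2 regions lay at GATA6 sites, while most GATA6 regions lay away from SOX2, although with equal numbers of peaks just over 50% of them held it. Of 7126 regions of both SOX2 lists, 81.7% held a GATA6 peak in replicate 1 and 84.1% in replicate 2, which is 82.9% ± 1.76 (SD, n = 2). Of 21293 regions of both GATA6 lists, 38.1% held a SOX2 peak in replicate 1 and 35.1% in replicate 2, which is 36.6% ± 2.08 (SD, n = 2). A peak of both lists of the other factor was present in 78.4% of the SOX2 regions (95% Wilson interval 77.5 to 79.4) and in 26.3% of the GATA6 regions (25.7 to 26.8). These intervals cover counting error only. With 2 lists against 2, no exact permutation test on both sides can give a p below 0.33, so values between both factors are compared with the spread between lists and were not tested.

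A further 4404 regions had both GATA6 lists and 1 SOX2 list, 635 had both SOX2 lists and 1 GATA6 list, 1443 had 1 list of each, and 18405 had a peak of a single list. Peaks found in a single list were low. Their median fold over the local background was 4.36 and 4.54 in the GATA6 lists and 4.65 and 4.87 in the SOX2 lists. With the lists recorded at 8 h in place of those named 8 h, there were 6543 shared, 21319 GATA6-only and 257 SOX2-only regions. With the 11538 top peaks by q-value of each list, shared regions outnumbered both others, at 3828 shared, 3241 GATA6-only and 2096 SOX2-only regions, and the share of GATA6 regions with SOX2 was 53.2% against 63.1% the other way round. Leaving out 1 list also moved the counts, since a class then needs a single list of that factor. GATA6-only regions numbered 18605 without GATA6 replicate 1 and 17379 without replicate 2, and SOX2-only regions 2631 without SOX2 replicate 1 and 4190 without replicate 2.

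Shared regions had the higher peaks of each factor. They also join peaks of more lists and were wider, with a median of 776 bp. The median was 463 bp in GATA6-only and 391 bp in SOX2-only regions, and the part of width in the differences was not tested. Fold is the height of the peak over the local background, as the peak caller gives it. The background coverage differed between the factors, so GATA6 and SOX2 folds are not on 1 scale. In shared regions the median GATA6 fold was 9.88 in replicate 1 and 10.9 in replicate 2. In GATA6-only regions it was 5.83 and 6.36. On the log2 scale the shared regions exceeded the GATA6-only regions by 0.77 ± 0.012 (SD, n = 2), and 79.7% and 80.2% of them lay above the GATA6-only median. The SOX2 fold differed less between classes, with medians of 7.70 and 7.66 in shared regions and 6.16 and 6.13 in SOX2-only regions, a log2 difference of 0.32 ± 0.00044 (SD, n = 2). Both differences exceeded the spread between lists, but the lists were read on the same regions, so that spread leaves out the choice of regions. The differences moved more with the choice of peaks than between lists. With equal numbers of peaks the GATA6 difference was 0.47, and without SOX2 replicate 2 the SOX2 difference was 0.53.

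The relation with strength was graded for GATA6. When the 21293 GATA6 regions were ranked by fold, 23.9% and 20.4% of the weakest decile held a peak of SOX2 replicate 1 and 2, against 79.3% and 78.5% of the strongest decile. The share stayed near its low level over the first 4 deciles and rose from the fifth on. Even so, 265 regions of the strongest decile, 12.4%, had no SOX2 peak. For SOX2 regions the shares began higher, at 63.3% and 67.0% with GATA6 replicate 1 and 2 in the weakest decile, and reached 95.9% and 96.1% in the strongest. Within shared regions the heights of both factors were only weakly related. Across the 5590 regions Spearman's rho of the folds was 0.27 to 0.30 for the 4 pairs of a GATA6 and a SOX2 list, against 0.88 between the GATA6 replicates and 0.60 between the SOX2 replicates. Regions are not replicates, so these correlations are descriptions.

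**Figure D1:**
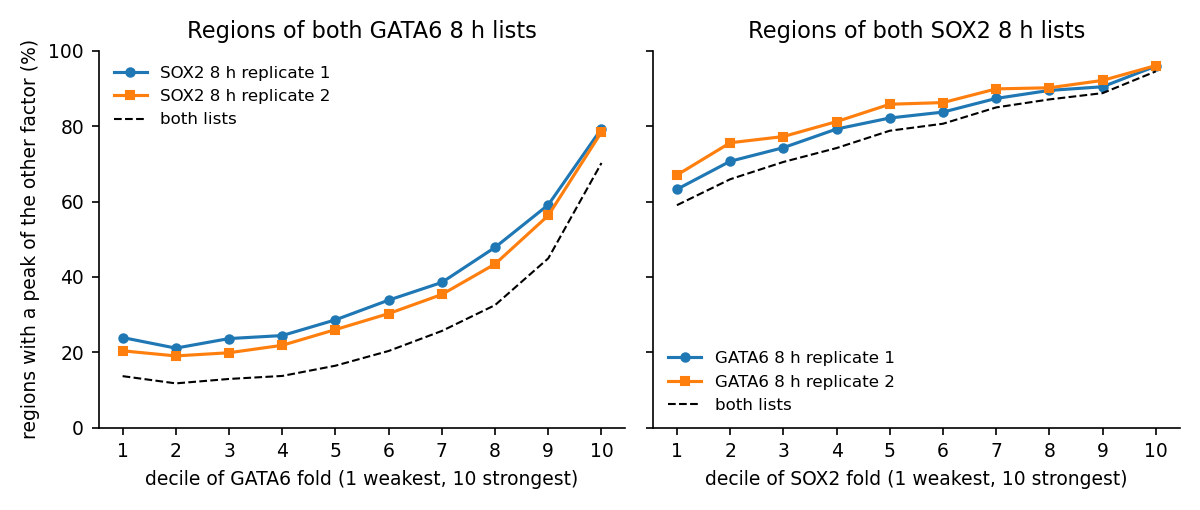
Share of reproducible GATA6 regions with a SOX2 8 h peak (left) and of SOX2 regions with a GATA6 8 h peak (right), by decile of the region's own fold, with 1 line for each list and a dashed line for both lists. For GATA6 the share rises from 23.9% and 20.4% in the weakest to 79.3% and 78.5% in the strongest decile, and for SOX2 it starts at 63.3% and 67.0%.

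The next comparison asked whether both factors peaked at the same point. GATA6 and SOX2 summits lay slightly farther apart than the summits of SOX2 replicates and clearly farther than those of GATA6 replicates. The median distance in shared regions was 70, 70, 70 and 72 bp for the 4 pairs of a GATA6 and a SOX2 list, a mean of 70.5 ± 1.00 bp (SD over 4 pairs, which share lists). It was 38 bp between the GATA6 replicates and 60 bp between the SOX2 replicates. Summits lay within 50 bp of each other in 39.5 to 41.2% of regions between factors, in 57.7% between GATA6 replicates and in 44.3% between SOX2 replicates. With the mean summit of each factor in place of single lists, the median was 57.5 bp over all shared regions and 45.2% were within 50 bp. In the 624 shared regions (11.2%) where both factors' replicates placed their summits within 25 bp, the mean GATA6 and SOX2 summits were a median of 31.3 bp apart, and 61.4% were within 50 bp. Leaving out regions with more than 1 peak of a list left medians of 66 to 68 bp between factors in 5038 regions.

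**Figure D2:**
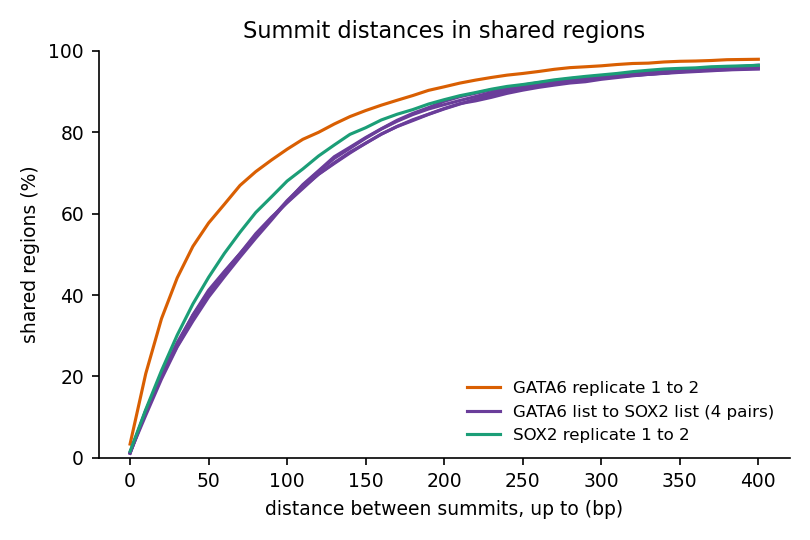
Cumulative share of the 5590 shared regions (y axis, percent) whose summits lie within a given distance (x axis, bp), for the GATA6 replicates, the SOX2 replicates and the 4 pairs of 1 list of each factor. The between-factor curves (medians 70 to 72 bp) run just below the SOX2 replicate curve (60 bp) and well below the GATA6 replicate curve (38 bp).

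The words under the summits separated the classes. A GATA word was present within 100 bp of 78.2% and 77.3% of GATA6-only summits in replicate 1 and 2, and of 69.3% and 68.2% of shared GATA6 summits. At shared SOX2 summits the share was 66.9% and 69.1%. At SOX2-only summits it was 19.8% in each list, beside 16.2% of windows around all 21938 protein-coding TSSs. Those TSS windows had 58.5% GC, against 52.3% in SOX2-only, 47.4% in shared and 45.9% in GATA6-only windows. Base composition was not matched. SOX words had another order. They were present within 100 bp of 46.7% and 48.9% of shared SOX2 summits and 40.2% and 40.7% of SOX2-only summits, but only 27.6% and 26.9% of GATA6-only summits. Shared GATA6 summits had a SOX word in 42.4% and 42.0%, and the TSS windows in 15.9%. Within a list, a GATA word was more frequent at shared than at SOX2-only SOX2 summits by 48.2 percentage points ± 1.53. A SOX word was more frequent at shared than at GATA6-only GATA6 summits by 15.0 ± 0.135 (SD, n = 2). Both lists of a factor were read on the same regions, so these SDs cover only the placement of summits. Leaving out 1 list gave 41.5 to 44.9 points for GATA words and 10.1 to 14.7 for SOX words. A match is a description of the window and not a site. A full match to the composite OCT-SOX motif was too rare to compare, in 3 to 5 of 5590 shared windows, 3 and 4 of the GATA6-only windows and 3 of the 901 SOX2-only windows in each list.

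The position of the words also differed between summits of the factors. GATA words were sparse at the GATA6 summit itself and commonest at its sides. Within 25 bp of shared GATA6 summits there were 3.44 and 3.25 GATA words per kb in replicate 1 and 2, against 9.33 in each between 75 and 100 bp. GATA6-only summits had 7.77 and 7.15 words per kb within 25 bp and at most 16.8 in each list, reached between 50 and 100 bp. At shared SOX2 summits, in the same regions, the density within 25 bp was higher, 5.79 and 7.02 words per kb. SOX words showed no such dip, with 3.37 and 3.95 per kb within 25 bp of shared SOX2 summits and 2.97 and 3.53 at SOX2-only summits. GATA words around SOX2-only summits had no preferred distance and stayed at or below 1.44 per kb in every bin up to 300 bp.

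**Figure D3:**
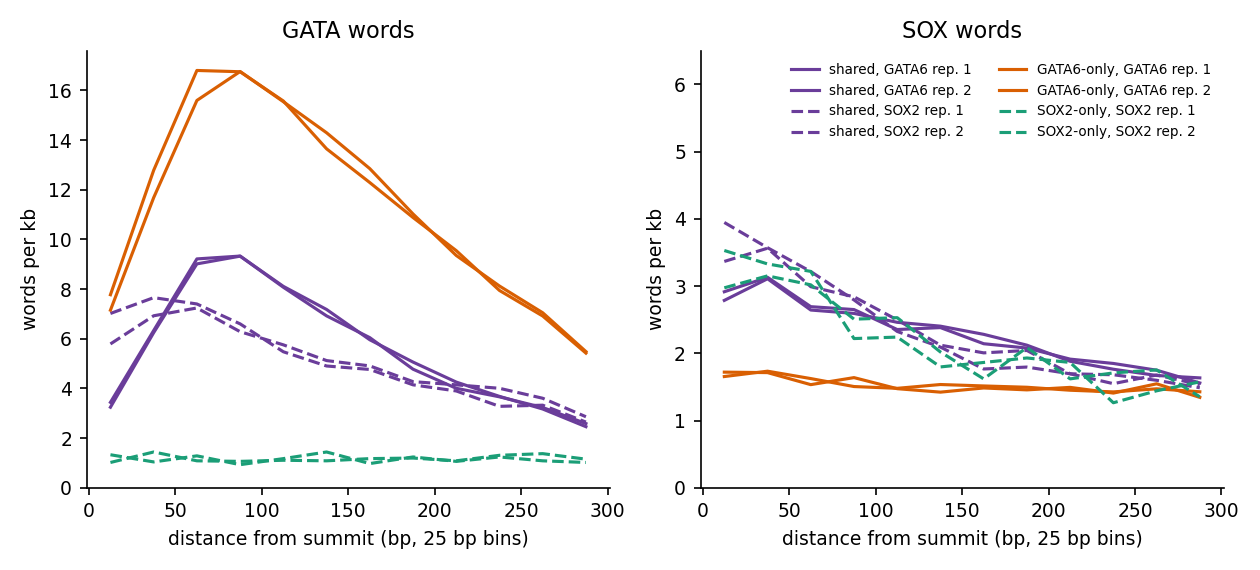
Density of GATA words (left) and SOX words (right), in words per kb, against the distance from the summit in 25 bp bins, with 1 line for each class and list. GATA words dip at GATA6 summits (3.44 and 3.25 per kb in shared regions) and rise to 9.33 per kb at 75 to 100 bp, and SOX words are densest near SOX2 summits.

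SOX2-only regions lay closer to promoters than both other classes. The median distance to the nearest protein-coding TSS was 10.9 kb in each SOX2 list for SOX2-only regions. For GATA6-only regions it was 30.4 kb in each list, and for shared regions it was 31.7 to 31.8 kb over the 4 lists. Within 5 kb of a TSS lay 43.3% of SOX2-only summits in each list, 15.4% and 15.5% of GATA6-only summits and 17.1 to 17.2% of shared summits. The excess of SOX2-only over shared regions was 26.2 percentage points ± 0.0632 (SD, n = 2). Both lists were read on the same regions, so this SD covers only the placement of summits. Leaving out 1 list gave an excess of 17.7 to 24.6 points. It was concentrated at the promoter, since 33.6% and 33.9% of SOX2-only summits lay within 1 kb, against 8.41 to 8.57% of shared and 4.61 and 4.66% of GATA6-only summits. SOX2-only windows were also richer in CpG, with a mean of 6.74 CpG per window against 2.83 in shared and 2.38 in GATA6-only windows and 11.7 around all protein-coding TSSs. Away from promoters, SOX2-only summits held a SOX word in 50.3% and 49.8% and a GATA word in 23.1% and 24.0%. Shared SOX2 summits there were about level in SOX words, at 48.6% and 50.9%, and held a GATA word in 70.3% and 72.6%. Within 1 kb of a TSS the shares at SOX2-only summits were 20.1% and 23.0% for SOX words and 13.2% and 11.5% for GATA words. At shared SOX2 summits within 1 kb, SOX words were present in 26.3% and 28.4% and GATA words in 30.9% and 31.3%. The difference in GATA words between these classes was thus smaller within 1 kb of a TSS than beyond it.

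**Figure D4:**
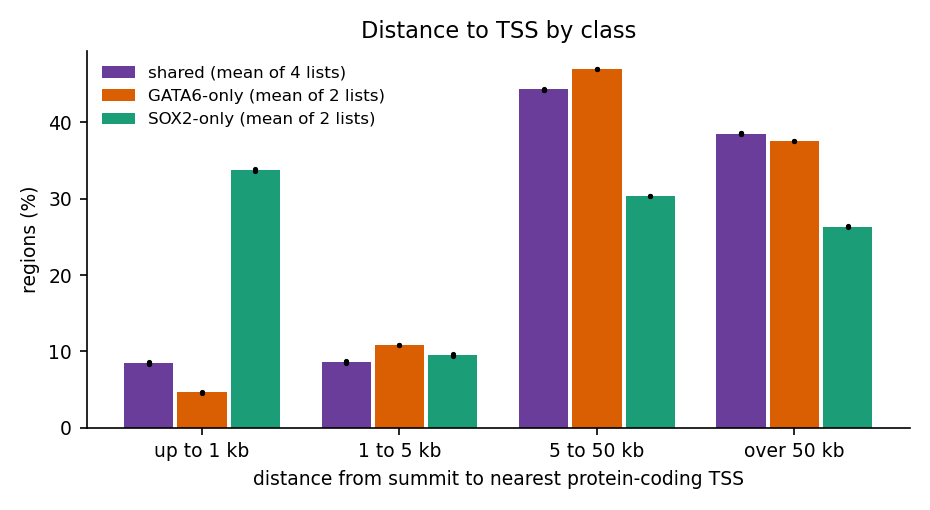
Share of summits (y axis, percent) by distance to the nearest protein-coding TSS for each class, with bars for the mean over the lists that hold the class and dots for each list. SOX2-only regions exceed both other classes within 1 kb (33.6% and 33.9% in the 2 lists), and shared and GATA6-only regions lie mostly beyond 5 kb.

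Part of the SOX2-only class lay on tRNA genes, which RNA polymerase III transcribes from promoters inside the gene. Of the 901 SOX2-only regions, 35 (3.88%, Wilson interval 2.81 to 5.35) overlapped a tRNA gene of the RefSeq annotation, against 4 shared and 2 GATA6-only regions. This count was added after the genes with the most SOX2-only regions had been seen. By list, the SOX2 peaks covered 66 and 52 of 403 tRNA genes and the GATA6 peaks covered 8 and 4. At 0 h the SOX2 lists covered 113 and 87. GATA6 at 2 h covered 56 and 32, and SOX17 at 24 h covered 12 and 26. The median SOX2 fold of the 35 regions was 7.29 and 6.27 in replicate 1 and 2, against 6.16 and 6.13 over the class. tRNA genes have near-identical copies, so the placement of reads among them is uncertain.

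Other lists of the series, which did not take part in choosing the classes, showed when each class was held by other factors. Nearly all shared regions held GATA6 at 2 h already, whereas about as many held SOX2 at 0 h as did not. At 2 h a GATA6 peak covered 99.2% and 98.0% of shared, 82.3% and 71.9% of GATA6-only and 84.2% and 70.1% of SOX2-only regions in replicate 1 and 2. So most SOX2-only regions had also held GATA6 at 2 h, and by the lists named 4 h still 56.9% and 65.7% did. In the lists named 48 h, GATA6 remained on 30.9% and 35.8% of shared, 8.24% and 11.5% of GATA6-only and 2.11% and 3.55% of SOX2-only regions. GATA6 lists at 0 h, before induction, covered 4 and 20 shared, 0 and 7 GATA6-only and no SOX2-only regions. These lists held between 86 and 79358 peaks, and their lengths move with the shares.

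SOX2 before induction covered 82.5% and 80.5% of the SOX2-only regions, 51.1% and 49.7% of the shared regions and 10.6% and 8.89% of the GATA6-only regions. In shared regions SOX2 coverage went up to 71.5% and 85.3% at 2 h and 96.9% and 88.9% at 4 h. These regions hold SOX2 at 8 h by definition, so a rise towards 8 h is partly built in. The SOX2 lists held 24073 and 52574 peaks at 2 h and 45340 and 24617 at 4 h. The homeodomain factor NANOG covered 29.9% and 38.8% of shared regions at 0 h, 89.0% and 76.3% at 2 h, 69.6% and 68.1% at 4 h and 17.9% and 14.2% at 8 h. In GATA6-only regions it covered at most 35.3% and 20.1%, at 2 h, and 1.42% and 0.708% at 8 h. SOX17, a PrE factor of the SOX family, covered at 24 h 67.8% and 75.8% of the shared and 57.9% and 68.7% of the SOX2-only regions, but 19.9% and 27.9% of the GATA6-only regions. GATA4, the PrE paralogue of GATA6, covered 38.7% and 29.0% of the shared, 11.5% and 6.81% of the GATA6-only and 7.33% and 3.22% of the SOX2-only regions. The SOX17 lists held 27328 and 41979 peaks and the GATA4 lists 8427 and 4006. The part of list length in these shares was not tested.

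**Figure D5:**
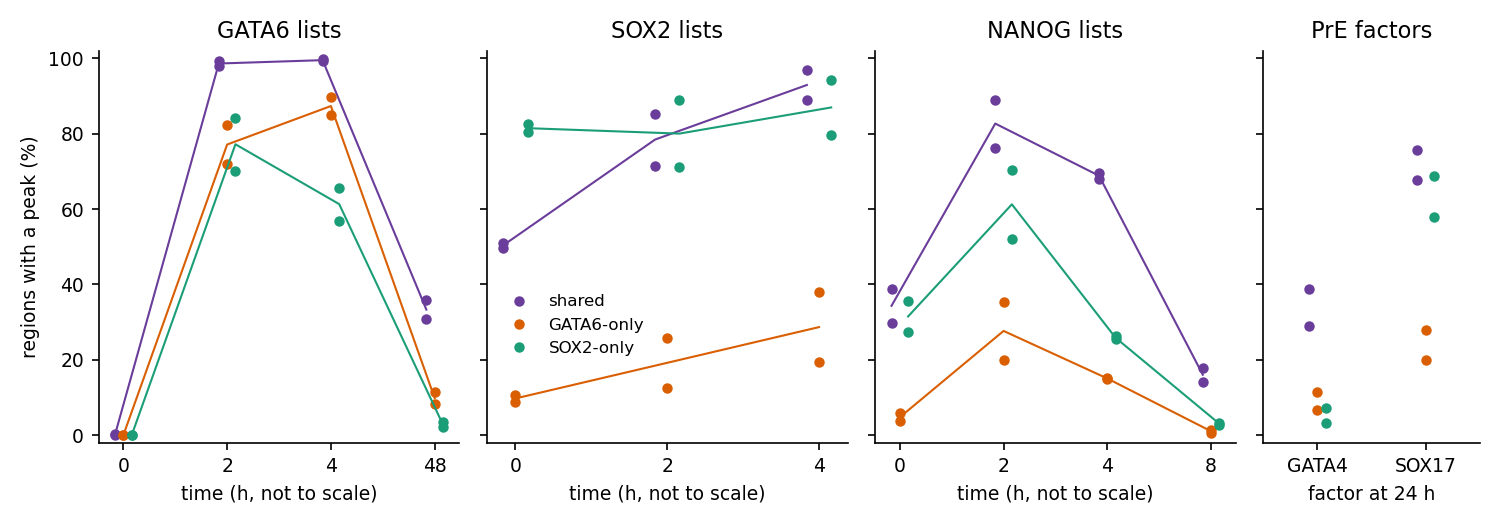
Share of shared, GATA6-only and SOX2-only regions (y axis, percent) that hold a peak of each other list of the series, by factor and time point (GATA6 times by name), with 1 dot for each list and lines through the means. SOX17 covers shared (67.8% and 75.8%) and SOX2-only regions (57.9% and 68.7%) more than GATA6-only regions (19.9% and 27.9%), and the 2 replicates of a time point can lie far apart.

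Change over time was tested on the reproducible regions of 1 factor with the lists of another, with the F statistic as the measure and all 2520 arrangements of 8 lists among 4 time points enumerated (an exact permutation test). The 4 p-values were adjusted together. Of 21287 regions of both GATA6 8 h lists, a SOX2 peak covered 25.1% and 23.6% in the 0 h lists, 33.3% and 48.4% in the 2 h lists, 62.2% and 45.3% in the 4 h lists and 38.0% and 35.1% in the 8 h lists. The 0 h lists were the lowest, and the replicates at 2 and 4 h lay far apart. The time points did not differ beyond this spread (F = 4.48, exact permutation p = 0.0762, adjusted p = 0.0762). With the 11538 top peaks of every SOX2 list the same shares were 15.4% ± 0.193 before induction, 22.7% ± 0.349 at 2 h, 30.5% ± 0.605 at 4 h and finally 34.8% ± 0.488 (SD, n = 2), and the test passed (F = 768, exact permutation p = 0.00952, the smallest it can give). Among equal numbers of top peaks, the share on GATA6 8 h regions was higher at each later time point in both replicates.

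NANOG covered 12.3% and 16.97% of the GATA6 8 h regions before induction, 56.1% and 40.3% at 2 h, then 34.2% and 33.4% at 4 h and finally 6.52% and 4.75%. The test passed (F = 21.4, adjusted exact permutation p = 0.0190), with no overlap between any 2 time points. Of 7086 regions of both SOX2 8 h lists, NANOG covered 29.6% and 38.4% before induction, 86.0% and 71.9% at 2 h, then 61.1% and 59.9% at 4 h and finally 15.0% and 11.9% (F = 45.9, adjusted exact permutation p = 0.0190). The NANOG 8 h lists held only 5506 and 2253 peaks. With 2253 top peaks in every NANOG list the GATA6 8 h regions were covered to 4.02%, 7.37%, 8.93% and 4.51% on average at 0, 2, 4 and 8 h, and the SOX2 8 h regions to 11.6%, 19.5%, 21.5% and 11.1%. At equal numbers the share was thus higher at 4 h than at 2 h, and about level at 8 h and 0 h, unlike in the full lists. GATA6 covered 97.2% and 94.1% of the SOX2 8 h regions at 2 h, 93.0% and 94.9% in the lists named 4 h, 81.4% and 84.0% in those named 8 h and 24.8% and 29.0% in those named 48 h (F = 446, adjusted exact permutation p = 0.0254, not passed with a replicate block, p = 0.0833). Renaming the pairs of lists leaves this F as it is. GATA6 at 0 h covered 0.0564% and 0.296%. The induced GATA6 lists ran from 79356 and 62681 peaks at 2 h to 5930 and 9765 in those named 48 h. With 5930 top peaks in every induced list the shares averaged 47.8% at 2 h and 49.4% in the lists named 4 h. They were 44.0% in those named 8 h and 24.7% in those named 48 h. At equal numbers the share was thus not lower at 4 h than at 2 h.

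The shared regions fell into 2 large groups by SOX2 before induction. Both SOX2 0 h lists covered 2545 of them (45.5%), neither covered 2500 (44.7%), and 545 had 1 of the pair. Shared regions that SOX2 had not held at 0 h were the stronger GATA6 sites, with a median GATA6 fold of 12.4 and 13.6 in replicate 1 and 2, against 7.86 and 8.81 where SOX2 had been present. Their SOX2 fold at 8 h was lower, 7.11 and 7.23 against 8.34 and 8.35. A GATA word lay in 84.6% of the windows without SOX2 at 0 h and in 53.0% of those with it, whereas SOX words were about as frequent, 43.0% and 45.5%. NANOG had covered 2.00% and 4.40% of the former and 59.8% and 74.7% of the latter at 0 h. By 4 h NANOG covered 63.7% and 61.1% of the former and 76.0% in each list of the latter. GATA6 in the lists named 48 h covered 39.4% and 44.1% of the regions new to SOX2 and 22.6% and 27.4% of the others. SOX17 covered 55.6% and 65.4% of the new and 79.7% and 85.9% of the old regions. Of the GATA6-only regions, 9791 (86.7%) had no SOX2 peak in either 0 h list.

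The strongest shared regions were found at 5 unlike genes. The first was chr9:88332246-88333231, in an intron of Nt5e (an ectonucleotidase), with a fold of 45.5 and 42.4 in the GATA6 lists and 39.6 and 43.5 in the SOX2 lists. The second, chr8:8723418-8724907, lay between genes 33.4 kb upstream of Arglu1, with a fold of 56.1, 47.4, 31.3 and 36.2 in the same order. The third, chr6:82798994-82801149, lay 26.0 kb upstream of Hk2, which encodes a hexokinase, with 69.7, 79.8, 24.6 and 18.8. The fourth, chr2:104098212-104099457, lay in an intron of Cd59a, a complement inhibitor, with 68.5, 87.7, 19.4 and 18.1. The fifth, chr7:131696919-131698281, lay in an intron of the FGF receptor gene Fgfr2, whereas the nearest TSS was that of Bub3 at 137 kb, with 50.2, 66.3, 25.6 and 18.8. The background coverage differed between the factors, so the GATA6 and SOX2 folds of a region are not ranked against each other.

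The strongest GATA6-only regions were below the strongest shared regions in each GATA6 list. They were, in order, chr2:177500305-177501134 in an intron of the predicted gene Gm14403, with a fold of 34.5 and 39.1, chr12:69440633-69441456, 68.8 kb upstream of Gm9887, with 33.2 and 36.0, and chr17:48521097-48521997 in an intron of Unc5cl with 27.5 and 38.2. The window at Unc5cl held 14 GATA words, all in a simple repeat. The next were chr4:142242885-142243505, 3.99 kb upstream of Kazn, with 34.9 and 28.6, and chr2:126700783-126702233, 5.83 kb upstream of the deubiquitinase gene Usp8, with 31.1 and 30.9. All 5 also held a GATA6 peak in each 2 h list and in each list named 4 h. SOX2 peaks were called at 4 of the 5 at 2 or 4 h, so absence at 8 h did not mean absence throughout.

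Among SOX2-only regions 1 stood far above the others. The region chr8:70792470-70793243, in an intron of the kinase gene Mast3, had a fold of 38.5 and 40.5, and the second, chr2:108843860-108844294, had 13.2 and 18.1. It lay 437 kb from the TSS of Kif18a, its nearest gene. The third, chr9:3987995-3988826, lay 321 kb from Aasdhppt, with 16.3 and 14.6. The fourth, chr16:49699044-49699684, lay at the promoter of Ift57, 28 bp from its TSS, with 13.01 and 17.5. Ift57 encodes a protein of intraflagellar transport. The fifth, chr7:127588183-127588697, had its summit in an exon of Ccdc189, 137 bp downstream of the TSS, with 14.3 and 15.8. All 5 had held GATA6 in each 2 h list and SOX2 in each 0 h list.

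Regions were assigned to the nearest protein-coding TSS within 50 kb to see which genes lay near each class. Of 21938 protein-coding genes, 12.2% had a shared region, 21.6% a GATA6-only region and 2.83% a SOX2-only region, and 29.6% had a region of any class. These counts moved with the lists used. The 621 genes with a SOX2-only region became 1691 without SOX2 replicate 1, 2527 without SOX2 replicate 2 and 202 by the sample record, and the 4741 genes with a GATA6-only region became 1741 with equal numbers of peaks. The PrE and Epi gene sets that the study took from published blastocyst data both lay above these shares for shared and GATA6-only regions. For SOX2-only regions the PrE share was near the 2.83% of all genes. Of 570 annotated PrE genes, 178 (31.2%) had a shared, 249 (43.7%) a GATA6-only and 22 (3.86%) a SOX2-only region. Of 218 Epi genes, 80 (36.7%) had a shared, 111 (50.9%) a GATA6-only and 15 (6.88%) a SOX2-only region. Gene length and regional density of genes were not taken into account. Both a shared and a GATA6-only region were assigned to 1347 genes.

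Of 10 PrE transcription factor genes 7 had a region, 6 a shared and 7 a GATA6-only one, against 29.6%, 12.2% and 21.6% of all genes. None had a SOX2-only region, which at 2.83% of all genes is near the background for 10 genes. The strongest shared region at Gata6 itself lay 45.5 kb upstream, with a fold of 18.3 and 20.4 for GATA6 and 12.0 and 10.2 for SOX2 in replicate 1 and 2. At Sox17, chr1:4473937-4474993, 22.8 kb downstream of the TSS, had 13.7 and 15.9 for GATA6 and 5.08 and 5.78 for SOX2. At Gata4, chr14:63264414-63265713 in an intron had 7.85 and 20.1 for GATA6, with replicates far apart, and 5.97 and 5.85 for SOX2. Foxa2 and Gsc also had a shared region as their strongest. Foxq1, Hnf4a and Sox18 had no region of any class.

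Of 10 genes for PrE receptors and endocytic proteins, 6 had a shared, 5 a GATA6-only and none a SOX2-only region. Over all genes these shares were 12.2%, 21.6% and 2.83%. Pdgfra, the PrE receptor for PDGF, had 4 shared regions, the strongest, chr5:75117853-75119198, with 24.7 and 33.0 for GATA6 and 14.2 and 15.6 for SOX2. Il6st, the shared receptor chain of LIF and IL-6, had 20.9 and 29.3 for GATA6 and 17.8 and 14.0 for SOX2. The strongest regions at Lrp2 (14.4 and 19.5) and Fgfr1 (13.4 and 12.2) were GATA6-only, and those at the endocytic genes Dab2 and Cubn were shared. Among 12 basement membrane genes 9 had a shared and 8 a GATA6-only region, against 12.2% and 21.6% of all genes. Lamc1, which encodes the laminin gamma 1 chain, had 6 shared and 8 GATA6-only regions. The strongest, chr1:153376345-153377413, had 48.7 and 63.0 for GATA6 and 16.8 and 18.3 for SOX2. Nid1, Col4a2, Serpinh1 and Sparc also had a shared region as their strongest, and Lamb1 a GATA6-only one (12.8 and 10.9).

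Pluripotency genes also had regions of both factors. All 14 pluripotency transcription factor genes had a region, against 29.6% of all genes. A shared region lay at 11, a GATA6-only region at 11 and a SOX2-only region at 2, against 12.2%, 21.6% and 2.83% of all genes. Klf5 had 4 shared and 10 GATA6-only regions, and its strongest, chr14:99274599-99276030, had 33.3 and 40.8 for GATA6 and 21.1 and 18.1 for SOX2. Tfcp2l1, a naive pluripotency factor, had 42.1 and 45.5 for GATA6 and 6.81 and 8.14 for SOX2 at chr1:118647755-118650451. At Nanog, chr6:122702433-122703467, 4.80 kb upstream of the TSS, had 8.27 and 12.0 for GATA6 and 9.66 and 16.9 for SOX2. Nr0b1 and Esrrb had a shared and Nr5a2 a GATA6-only region as their strongest. Of 14 genes for Epi ligands and other ES cell genes, 6 had a shared, 4 a GATA6-only and 1 a SOX2-only region. Over all genes the shares were 12.2%, 21.6% and 2.83%, so the GATA6-only count is near its background. Nodal, a TGF-beta ligand of the epiblast, had 15.9 and 21.4 for GATA6 and 13.1 and 20.0 for SOX2 at chr10:61415673-61416750, 1.82 kb upstream of its TSS. Otx2, Lefty2, Tdgf1 and L1td1 had shared regions, and Lefty1 a GATA6-only region (10.5 and 16.3).

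The 10 genes of FGF and ERK feedback all had a region, against 29.6% of all genes. A shared region lay at 7, a GATA6-only region at 6 and a SOX2-only region at 2, against 12.2%, 21.6% and 2.83% of all genes. Spry4, an inhibitor of the pathway, had 5 shared regions, the strongest with 18.8 and 25.9 for GATA6 and 18.6 and 12.5 for SOX2. Etv4, a transcription factor that FGF signalling induces, had its strongest region at its TSS. There, at chr11:101784943-101785672, the fold was 4.80 and 6.82 for GATA6 and 16.3 and 23.0 for SOX2. The GATA6 folds lay below the medians of shared regions in the same lists (9.88 and 10.9). The SOX2 folds lay above theirs (7.70 and 7.66). Dusp6 and Spry2 had a shared and Etv5 and Dusp4 a GATA6-only region as their strongest. The trophectoderm genes also had regions, 4 of 10 a shared, 7 a GATA6-only and 1, Tfap2c, a SOX2-only region with 13.2 and 8.99. The shares of all genes were again 12.2%, 21.6% and 2.83%. Krt18, Eomes and Gata3 had a GATA6-only region as their strongest, and Elf5 and Gata2 a shared one.

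Of 10 genes that SOX2 is known to hold in neural cells 3 had a region of any class, which is near the 29.6% of all genes. Pou3f1 had a shared region, Nes, the gene for nestin, a SOX2-only region with 4.44 and 6.33, and Olig2 a GATA6-only region with 3.93 and 5.00. Of 10 genes of unrelated tissues none had a shared or SOX2-only region. A GATA6-only region lay at 3, among them Myh7 with 5.92 and 5.96 and Ins2 with 4.94 and 5.00. For 10 genes these counts are near the 12.2%, 2.83% and 21.6% of all genes. The genes with the most shared regions were Vangl1, a planar cell polarity gene, with 8, Gna12 with 7, and Ak4, Itga6 and Lamc1 with 6 each. Those with the most GATA6-only regions were Rbpms with 12, Klf5 and Rai14 with 10, and Emx2 and Foxo3 with 8. The most SOX2-only regions fell to Zfp184 with 9, Olfr1423 with 5, Zfp213 with 4 and Abt1 and Aurkb with 3, none of which had a region of another class. Of these regions, 7, 3, 2, 3 and 3 overlapped a tRNA gene, in that order.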

How the data were processed

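CUT&RUN reads were aligned by the authors with Bowtie2 to mm10, processed with SAMtools and Picard, and peaks were called with MACS for each library against a control antibody. The deposited lists give for each peak a fold enrichment (a ratio to the local background), −log10 p and −log10 q values, a score and the summit offset. The score was not used. The lowest deposited −log10 q was 1.30 in the lists used. Coordinates are 1-based in GRCm38, the build of mm10, and no peak ran past a chromosome end.

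Peaks of the 4 lists were merged (1 bp overlap) and read by the peak with the highest −log10 q of each list. The mitochondrial chromosome was left out after its peaks were seen. A reproducible region held a peak of both lists. For the tests over time, regions were merged from 1 factor's lists alone, so their number differs slightly from the merged count. Background coverage was the value that made whole-number pileups, within 0.2%, of the 30 commonest fold and p pairs, of which 10 to 17 were met. Genes came from GENCODE vM21 and tRNA genes from RefSeq. For the regions and genes named, the rule was the 5 strongest regions of each class by mean log2 fold, up to 6 genes of each hand-written list by strongest region, and the 5 genes with most regions. Members and lists were chosen with earlier results of these data known. The code was tested on simulated lists. Analyses used Python 3 with pandas, SciPy and pysam. The 4 p-values over time were adjusted by Benjamini-Hochberg. Some regions that the rule names are not reported here.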

Additional observations from a re-analysis of the deposited data

How the results depend on the processing

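Limits were the shallower SOX2 libraries, 2 lists a factor and the conflict over the time of the GATA6 lists. In the alternatives run, the differences between classes in fold, TSS distance and words kept their sign. The order of class sizes did not, since with equal numbers of peaks shared regions (3828) outnumbered GATA6-only regions (3241).

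By the sample record the values were 21319 GATA6-only and 257 SOX2-only regions, 28.5% of GATA6 regions with SOX2 and 94.1% of SOX2 regions with GATA6, log2 fold differences (shared minus only) of 1.13 for GATA6 and 0.36 for SOX2, a summit distance of 77.8 bp, differences of 36.7 points within 5 kb of a TSS, 46.5 in GATA words and 11.2 in SOX words, and 7150 and 202 genes with GATA6-only and SOX2-only regions. With −log10 q of at least 5 they were 3389 shared and 574 SOX2-only regions, 31.3% of GATA6 regions, fold differences of 0.71 and 0.23, 61.8 bp, differences of 22.8, 50.3 and 18.4 points, and 1686 and 382 genes with shared and SOX2-only regions. With equal numbers of peaks they were 3241 GATA6-only and 2096 SOX2-only regions, 53.2% and 63.1%, 0.47 and 0.34, 67.6 bp, 21.5, 44.8 and 17.8 points, and 1741 and 1319 genes with GATA6-only and SOX2-only regions. With summits within 250 bp as the overlap, 79.9% of SOX2 regions had GATA6 and the summit distance was 64.3 bp. With 50 bp to each side of the summit the word differences were 33.8 and 10.0 points, and with 200 bp, added after seeing the data, that in SOX words was 17.2. Keeping the mitochondrial chromosome, also added after seeing the data, moved no class count or share beyond its spread. Assigning any region within 50 kb gave 5334, 8771 and 1693 genes. With TSSs of all genes the difference within 5 kb was 24.6 points. The causes of these changes were not tested, except that stricter settings leave fewer peaks by construction.

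Leaving out each list in turn gave 13188 to 18605 GATA6-only and 1130 to 4190 SOX2-only regions, the last without SOX2 replicate 2, and 766 to 2527 genes with SOX2-only regions. The shares were 28.9 to 38.1% of GATA6 and 64.2 to 84.1% of SOX2 regions, the fold differences 0.55 to 0.93 for GATA6 and 0.30 to 0.53 for SOX2, the summit distance 70.5 to 72.5 bp, and the differences 17.7 to 24.6 points within 5 kb, 41.5 to 44.9 in GATA words and 10.1 to 14.7 in SOX words.

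At equal numbers of peaks the test of SOX2 at GATA6 8 h regions passed (exact permutation p = 0.00952), and between 0.0571 and 0.286 lay its p without single lists. The replicate number shared across time points is not labelled as a batch. With a replicate block the exact permutation p was 0.0833 for GATA6 at SOX2 8 h regions, which then missed the threshold, 0.208 for SOX2 at GATA6 8 h regions and 0.0417, the smallest 576 arrangements allow, for both NANOG tests. Unlike the main p-values, those with a block were not adjusted over the 4 tests, so 0.0417 is not a pass on the adjusted scale. Replicate 1 lay above replicate 2 at 3, 3, 1 and 3 of 4 time points in the 4 tests, so the numbers gave no common order.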

Other observations

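The CpG-rich windows at Mast3 and Ift57 printed above led to a search, added after their sequences had been seen, for the words GTTGCCA and GTTGCTA on either strand, which are known as the core of the X-box bound by RFX factors of ciliated cells. They were present in 12.0% of the 901 SOX2-only windows (100 bp to each side of the summit, Wilson interval 10.0 to 14.3), in 5.08% of shared windows, in 4.31% of GATA6-only windows and in 5.30% of windows around all protein-coding TSSs. Within 1 kb of a TSS they were present in 17.2% of 303 SOX2-only windows (13.3 to 21.8), against 4.19% of 477 shared and 4.40% of 523 GATA6-only windows. The words were chosen on these windows and received no test. Only exact matches to them were counted, so a window with neither word may still hold an X-box of another form. The shares are thus shares of windows with these words and not of windows with an X-box. The printed window at Mast3 holds GTTGCTA, and that at Ift57 holds neither word.

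Sequence marked as repeat filled most of the window in 15.0% of SOX2-only, 13.4% of shared and 15.7% of GATA6-only regions, against 3.65% of TSS windows. On the mitochondrial chromosome, which was left out, the fold reached 167 and 157 in the GATA6 lists, above their highest fold in shared regions (69.7 and 87.7), and 44.9 and 36.7 in the SOX2 lists, below theirs (51.0 and 44.3).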
